A study of Mus musculus with 8 samples.

Results

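The genes described here encode the factors that start and carry out protein synthesis on the cytosolic ribosome. They are all rows of the deposited table whose symbol begins with Eif or Eef, leaving out the eIF2 kinases (Eif2ak genes) and the pair Eif2s3x and Eif2s3y. The rule gave 62 of the 23413 genes in the table and used no measured value. Of these, 58 are translation factors or their direct regulators. The other 4, Eif2c1 to Eif2c4, carry an older name of the Argonaute genes Ago1 to Ago4, whose proteins hold small RNAs and repress messenger RNAs. They are described apart from the translation factors.

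Expression had been measured by RNA sequencing in 8 mouse libraries. Repopulating microglia (n = 3) carry the strain label DTRmg, bone-marrow macrophages (n = 3) carry the same label, and wild-type microglia (n = 2) carry the strain label DTR. Microglia are the macrophages that live in brain tissue, and the series concerns their renewal after depletion. The same treatment text stands on all 8 samples: 2 mg tamoxifen given under the skin on postnatal days 12 and 14, then 500 ng diphtheria toxin into the peritoneum 3 times. The labels name neither the promoter that drives the toxin receptor, nor the age at collection, nor whether replicates came from separate animals, so the p-values below measure the spread between these libraries only. The text makes no exception for the wild-type mice. Strain and group cannot be told apart in either comparison with wild-type microglia.

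Translation starts when the small ribosomal subunit, loaded with eIF2, initiator tRNA, eIF1, eIF1A, eIF5 and the large scaffold eIF3, is brought to the capped end of a messenger RNA by the eIF4 factors. The eIF4 group consists of the cap-binding protein eIF4E, the scaffold eIF4G, the helicase eIF4A and the helicase helpers eIF4B and eIF4H. Elongation then runs on the eEF1 complex, which delivers charged tRNAs, and eEF2, which moves the ribosome along by a codon. Signalling through mTORC1 and eEF2 kinase tunes both phases. Many messenger RNAs for elongation factors and eIF3 subunits begin with a tract of pyrimidines, as those for ribosomal proteins do, and their translation is coupled to mTORC1.

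Values are normalised counts: reads per gene divided by a size factor for each library. The libraries held 5918944 to 12476427 reads. Repopulating replicate 3 stood apart, with correlations of 0.938 and 0.918 to replicates 1 and 2 over log2 values of all tested genes, against 0.979 between replicates 1 and 2. Of the 58 genes described here that were tested, 39 were lower in replicate 3 than in the mean of replicates 1 and 2, with a median difference of -0.26 on the log2 scale (all tested genes -0.02). Summed neutrophil markers (7 genes) were at 1540.0 to 2816 normalised counts in repopulating microglia and 748 to 1252 in bone-marrow macrophages, but 24313 and 26488 in wild-type microglia. All 7 were called lower in both comparisons with wild type. Summed monocyte markers (8 genes) were at 329 to 1829 in repopulating microglia, 4525 to 5972 in bone-marrow macrophages, and 5983 and 3683 in wild-type microglia. Of these 8, 5 were called lower in repopulating microglia, and 4 lower and 2 higher in bone-marrow macrophages, both against wild type. Summed endothelial markers (5 genes) were at 74.6 to 369, 48.3 to 68.9, and 373 and 559 in the same order of groups, with 0 and 3 called lower against wild type. Lymphocyte markers (6 genes, 4 tested) summed to 17.7 to 34.0, 47.2 to 78.5, and 126 and 60.0, with 2 called lower in repopulating microglia. Astrocyte markers (7 genes, 6 tested) summed to 283 to 2256, 109 to 157, and 1185 and 6527, with 1 called higher in repopulating microglia and 1 lower in bone-marrow macrophages. The part of these cell types in the results below was not tested. The 10 microglia markers were all called lower in bone-marrow macrophages than in wild-type microglia, with summed levels of 96434 to 108577 against 447075 and 484760, and reached 300457 to 350168 in repopulating microglia. In repopulating against wild-type microglia 4 of the 10 were called lower and 0 higher, with a median log2 fold of -0.43. Without repopulating replicate 3, 5 were lower and 1 higher. Neuron markers summed to 17.7 to 49.8 and oligodendrocyte markers to 1130 to 1616 over the 8 libraries. Summed transcripts of 4 Y-linked genes were 1.89, 1086 and 274 in repopulating microglia and 799, 1.06 and 0 in bone-marrow macrophages. They were 0 in both wild-type libraries, so the sexes are mixed across libraries. Xist, which female cells express, had 706, 0 and 595 normalised counts in repopulating microglia. It had 0.57, 567 and 538 in bone-marrow macrophages, and 532 and 604 in wild-type microglia. Repopulating replicate 3 thus held transcripts of both sexes. In libraries of whole cell populations, a lower level can mean fewer cells of a type or less RNA per cell, and these cannot be told apart.

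Translation factors took a larger share of all reads in repopulating microglia and bone-marrow macrophages than in wild-type microglia. The 58 translation factors took 2.73%, 2.89% and 2.02% of the reads in repopulating microglia. They took 3.15%, 3.12% and 2.99% in bone-marrow macrophages, against 1.55% and 1.51% in wild-type microglia. Shares of the 3 groups did not overlap, and no test was run on them. A large part of each share came from a single gene, Eef1a1, which encodes the tRNA-carrying subunit of the eEF1 complex. The other 57 factors took 1.21%, 1.31% and 1.06% in repopulating microglia, 1.61%, 1.53% and 1.56% in bone-marrow macrophages, and 0.827% and 0.843% in wild-type microglia. Ribosomal protein genes (77 genes) took 10.1%, 10.2% and 6.66% in repopulating microglia, 9.67%, 9.22% and 9.61% in bone-marrow macrophages, and 5.38% and 4.68% in wild-type microglia. Repopulating replicate 3 was the lowest of its group in all 3 of these shares and still above both wild-type libraries.

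**Figure D1:**
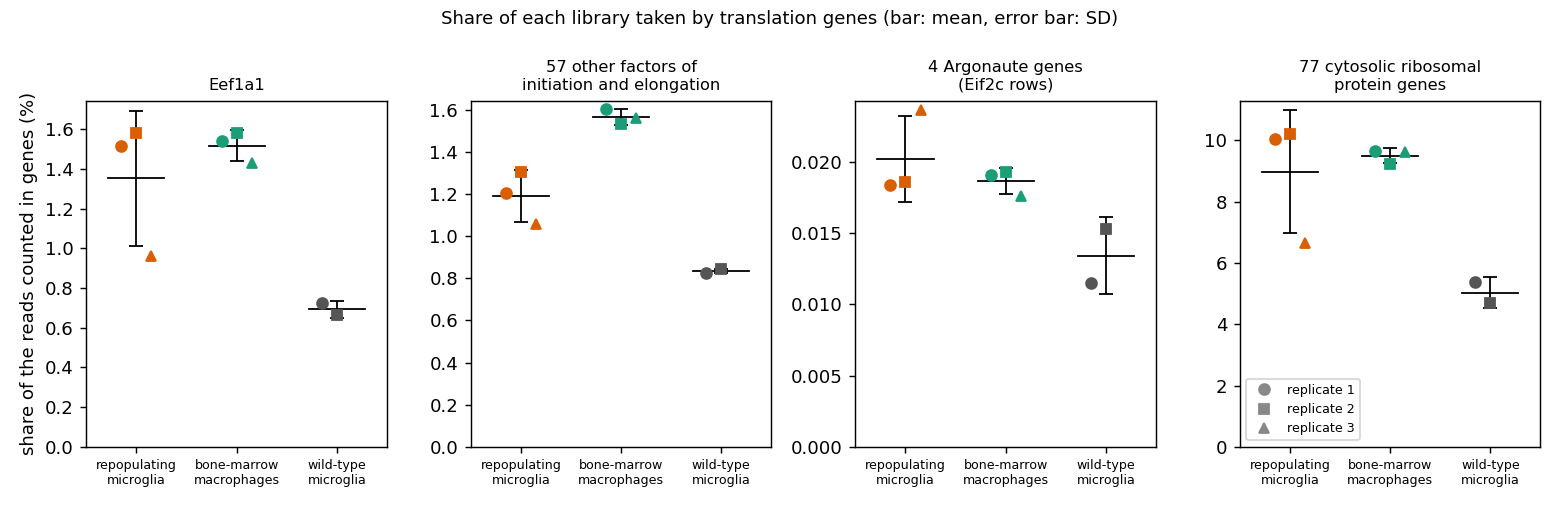
Share of the reads counted in genes (%, linear axes from 0) taken by Eef1a1, the other 57 factors, the 4 Argonaute genes and 77 ribosomal protein genes. Each point is a library, the bar is the group mean and the error bar the SD (n = 3, 3 and 2). Eef1a1 sat at 0.963% to 1.58% in repopulating microglia and 1.43% to 1.58% in bone-marrow macrophages, above the 0.664% and 0.723% of wild-type microglia.

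Levels within the set differed by orders of magnitude. Per kilobase of exon and averaged over the 8 libraries, Eef1a1 stood at 39600.1 normalised counts, Eef2 at 8706 and Eef1b2 at 2347. The next in order were Eif3h, Eef1g, Eif5a, Eif1, Eif4a1 and Eif3f, between 1789 and 1059.7. Of the tested genes, Eif2c3 was the lowest, at 2.89 per kilobase, and the 4 untested genes were lower still. Of the 62 genes, 58 reached 10 normalised counts in at least 2 libraries and were tested, 54 translation factors and the 4 Argonaute genes. Eif3j1, an eIF3 subunit, and Eif4e1b, a cap-binding protein known from oocytes, had no read in any library. Eif3j2, a near-identical copy of Eif3j1, had 0 to 3.05 normalised counts. Reads shared by such copies can be lost or split in counting, so the level of this subunit is uncertain. Eef1a2, the form of eEF1A known from neurons and muscle, had at most 8.06 normalised counts, near 0 beside Eef1a1. The spans of genes on the other strand overlap those of Eef2k, Eif1b, Eif2s2, Eif4enif1, Eif4g3 and Eif5b among others. Whether their exons overlap was not checked. Where they do, the reads cannot be told apart because the libraries did not mark strand.

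In repopulating against wild-type microglia, 10 of the 58 tested genes were called higher and 0 lower (limma, adjusted p under 0.05). At an unadjusted p under 0.05 it was 17 higher and 1 lower, Eif2b1, while edgeR called 10 higher and DESeq2 16, with 0 lower in each. Over all 11415 genes tested, 8.61% were called in this comparison, 4.86% higher and 3.75% lower. The 58 tested genes had a median log2 fold of 0.22, against -0.02 over all genes. Without the Argonaute genes the count was 8 of 54. The 10 genes were Eif4b, Eef2, Eif3k, Eef1g, Eif3f, Eif3a, Eif4ebp2, Eif2c1, Eif2c2 and Eif3h. No gene of the eIF2 group, of the start site selection group, or of the eIF5A and eIF6 group passed the threshold in limma or edgeR, and DESeq2 called 1 of them, in the start site selection group. At an unadjusted p under 0.05 in limma there were 2, Eif5b higher and Eif2b1 lower. The count rests on single libraries: it was 24 (23 higher, 1 lower) without repopulating replicate 3, 4 and 8 without repopulating replicates 1 and 2. With wild-type replicate 1 left out it was 1, and with replicate 2 left out it was 2. Leaving out any of the 3 bone-marrow macrophage libraries gave 6, and adding the Y-linked transcripts as a covariate gave 1. The number called over all genes moved as well. It was 983 in the main fit, 2969 of 11322 without repopulating replicate 3, and 468 and 886 without repopulating replicates 1 and 2. It was 491, 522 and 526 without bone-marrow macrophage replicates 1, 2 and 3, and 108 with the covariate. Without either wild-type library it was also lower than in the main fit.

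In bone-marrow macrophages against wild-type microglia, 22 of the 58 genes were called higher and 2 lower. Here 43.5% of all tested genes were called, 21.3% higher and 22.2% lower, so the share of factors called, 41.4%, was near that of all genes, while their split by direction was not. The median log2 fold of the 58 genes was 0.53, against -0.01 over all genes. The 2 genes called lower were Eef2k, which encodes the kinase that inhibits eEF2, and Eif4a2, which encodes a form of the eIF4A helicase. Without repopulating replicate 3 the count was 38 (34 higher, 4 lower), and without wild-type replicates 1 and 2 it was 14 and 11. It was 15 without bone-marrow macrophage replicate 1. Over all genes tested, 4960 of 11415 were called with all libraries and 6992 of 11322 without repopulating replicate 3. Without bone-marrow macrophage replicate 1 it was 3599 of 11384, and without either wild-type library it was also lower than with all. Repopulating libraries do not enter the folds of this comparison, only the spread shared by all libraries and the filter. The median log2 fold of the 58 genes stayed at 0.53 without repopulating replicate 3.

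Set directly against bone-marrow macrophages, repopulating microglia had 4 of the 58 genes called higher and 11 lower. Among all tested genes 30.9% were called, 16.0% higher and 14.9% lower. The median log2 fold of the 58 genes was -0.22, against 0.00 over all genes. Called higher were Eif4a2, Eif2c1, Eef2k and Eif4e2. Lower were Eif3c, Eef1g, Eif4b, Eif4a1, Eif5a, Eif3d, Eif2b1, Eif1a, Eif3a, Eif3b and Eif2b5. This split depends on the scaling: with libraries scaled to equal totals it was 2 higher and 23 lower, and the median of all genes moved to -0.25. Without repopulating replicate 3 the count was 28 (10 higher, 18 lower). It was 8 without repopulating replicate 1, and 3, 7 and 5 without bone-marrow macrophage replicates 1, 2 and 3. Over all genes tested, 3526 of 11415 were called with all libraries and 5335 of 11322 without repopulating replicate 3. The number over all genes was 2685 without repopulating replicate 1, and 2212, 2458 and 2326 without bone-marrow macrophage replicates 1, 2 and 3. The 3 comparisons share libraries in pairs, so their results are not independent of each other. All 12 proliferation genes measured were called higher in bone-marrow macrophages than in wild-type microglia (summed levels 8646 to 10500 against 2457 and 3014), and all 12 lower in repopulating microglia (2146 to 2691) than in bone-marrow macrophages. The part of that difference in the factor levels was not tested.

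**Figure D2:**
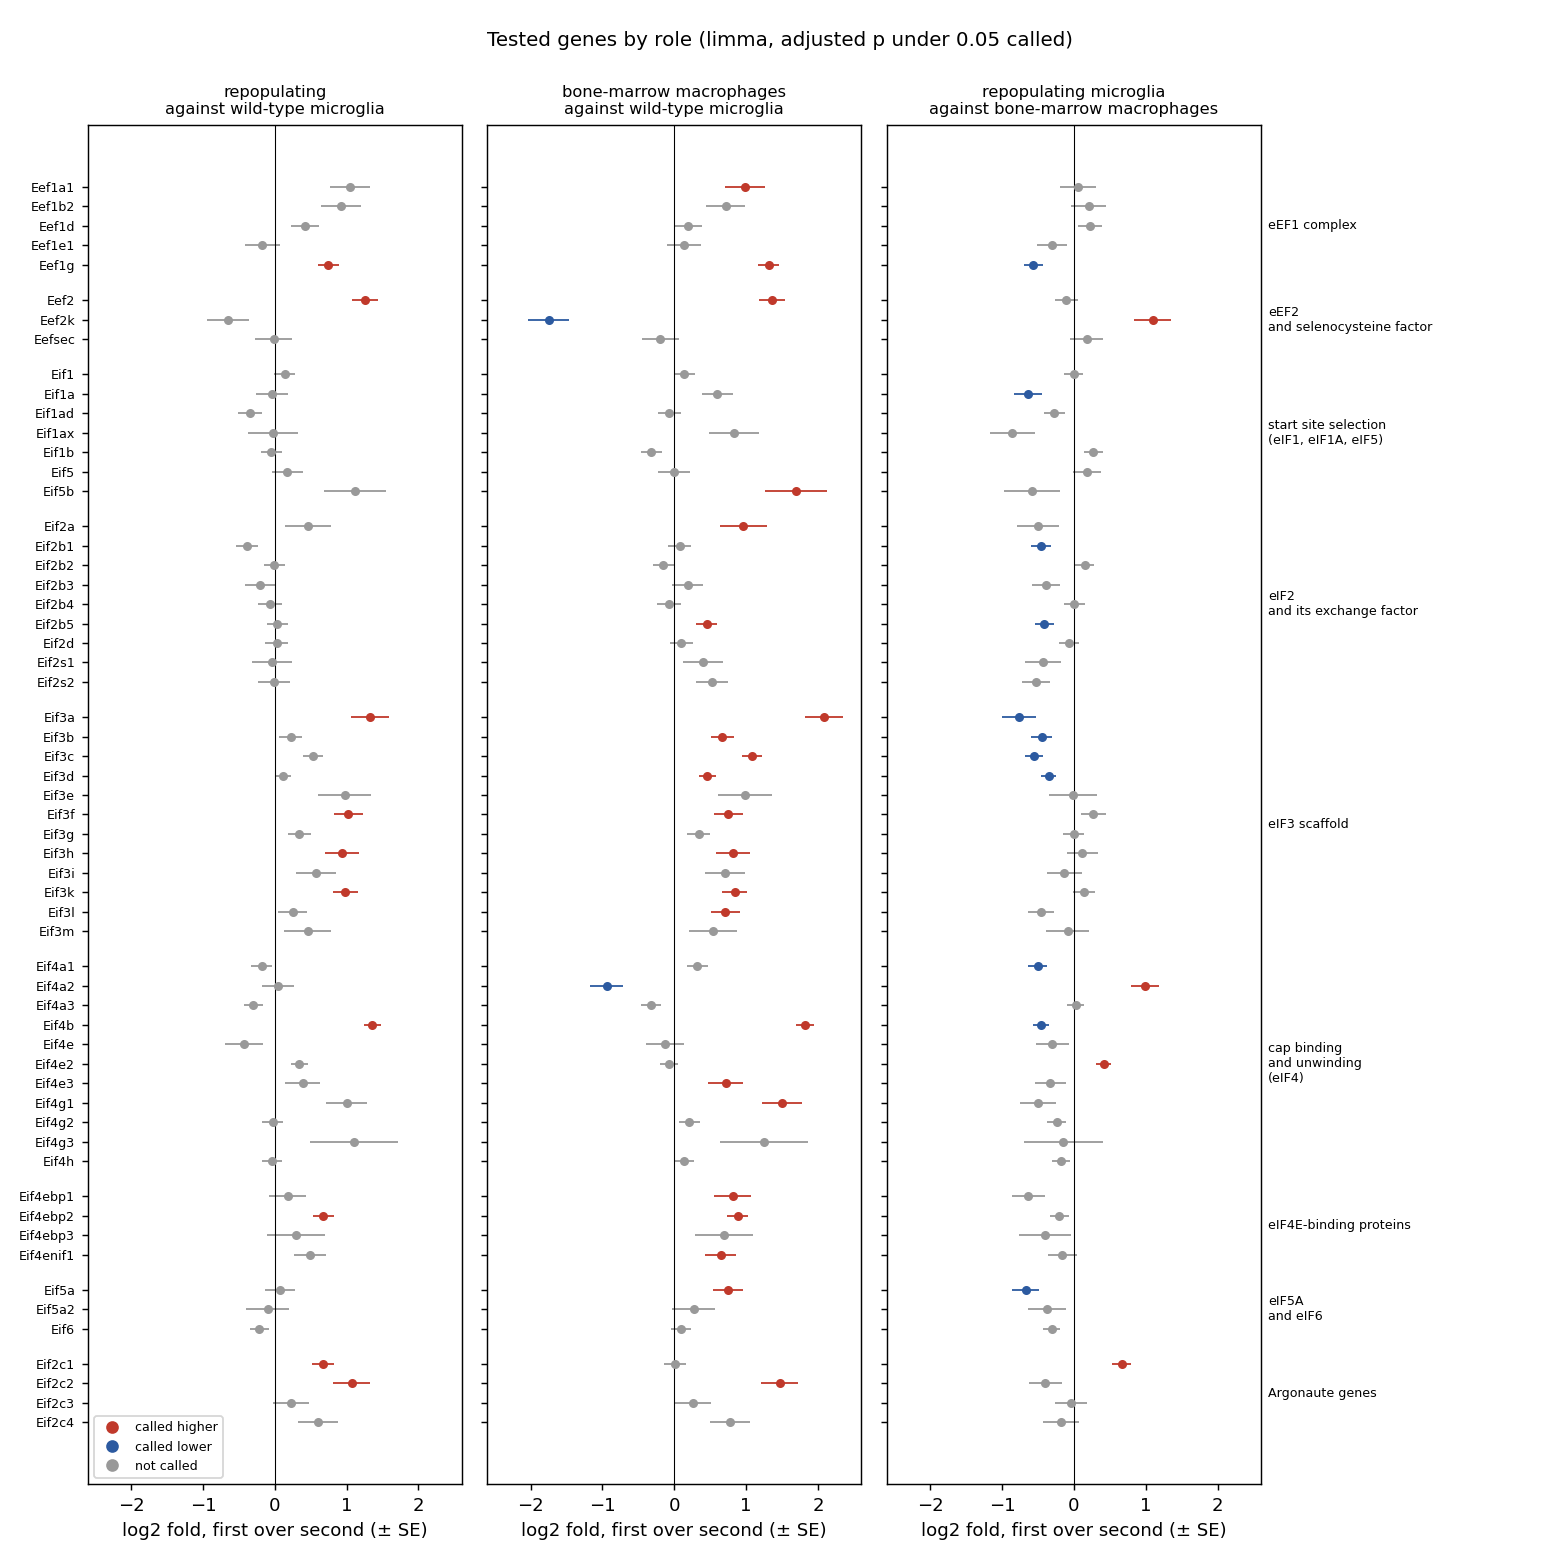
Log2 fold of the 58 tested genes, ordered by role, in the 3 comparisons (limma estimate on log2(normalised count + 1), bars ± SE, red called higher, blue called lower, grey not called). In the left panel all 10 called genes lie right of 0, and in the middle panel 22 lie right and Eef2k and Eif4a2 left.

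Promoters are shown for the 3 genes that were called higher in repopulating against wild-type microglia and hold the letters CACGTG. All 3 were also called higher in bone-marrow macrophages against wild-type microglia. CACGTG is the E-box core bound by Myc and by the Mit/Tfe family. This motif reads the same on both strands. RefSeq promoter windows (build GRCm38.p6) were matched for 47 of the 62 genes by symbol. Eef1g, Eif3h and Eif2c2 were not among them. CACGTG stood within 250 bases before the start in 11 of the 47 genes (23.4%), against 10.2% of the 8629 tested genes that matched and 6.86% of the 27025 genes with a window in the RefSeq table. The 11 genes were Eef2, Eef2k, Eif1b, Eif3f, Eif3k, Eif4a1, Eif4e, Eif4g1, Eif4h, Eif5a and Eif5a2, of which 3 were called higher in repopulating microglia. A match is a description of the letters and not a bound site. In the lines below the 250 bases before the start are printed on the gene's strand, with CACGTG in capitals, at chr10:81176381-81176630 (plus) for Eef2, chr7:108934165-108934414 (plus) for Eif3f and chr7:28981889-28982138 (minus) for Eif3k.
Eef2: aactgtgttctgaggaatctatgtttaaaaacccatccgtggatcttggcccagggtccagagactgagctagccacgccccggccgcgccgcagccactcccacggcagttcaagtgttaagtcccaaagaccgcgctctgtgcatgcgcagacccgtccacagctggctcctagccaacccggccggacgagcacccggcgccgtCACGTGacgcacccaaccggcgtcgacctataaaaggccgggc
Eif3f: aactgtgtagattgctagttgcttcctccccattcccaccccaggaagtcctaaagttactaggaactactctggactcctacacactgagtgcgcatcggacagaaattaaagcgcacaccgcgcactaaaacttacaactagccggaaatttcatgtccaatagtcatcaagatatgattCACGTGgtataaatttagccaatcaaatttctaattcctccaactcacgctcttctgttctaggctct
Eif3k: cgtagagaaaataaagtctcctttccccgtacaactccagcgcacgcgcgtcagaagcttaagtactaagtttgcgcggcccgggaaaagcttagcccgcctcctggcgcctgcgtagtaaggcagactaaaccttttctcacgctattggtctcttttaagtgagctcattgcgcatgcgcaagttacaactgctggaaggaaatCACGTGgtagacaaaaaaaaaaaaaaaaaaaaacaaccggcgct
The first letter of the motif lies 43 bases before the start in Eef2, 68 in Eif3f and 44 in Eif3k. In these genes the motif thus sits close to the start, within the last 70 of the 250 bases searched.

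The start itself was searched for the pyrimidine tract named above, as an unbroken run of at least 8 bases that are C or T, on the gene's strand, within 15 bases on either side of the annotated start. Such a run stood in 10 of the 62 windows of the 47 matched genes (16.1%). It stood in 12.0% of all windows and in 40.3% of the windows of ribosomal protein genes. A gene with several windows counts once for each, and Eif4enif1 holds more than 1 of the 10. The 30 bases around the start are shown with the longest run in capitals, as examples of long and short runs picked after the runs were seen, for Eif3f (chr7:108934400-108934429, plus), Eef1a1 (chr9:78481710-78481739, minus), Eif4b (chr15:102073758-102073787, plus) and Eef2 (chr10:81176616-81176645, plus).
Eif3f: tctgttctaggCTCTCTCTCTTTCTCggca
Eef1a1: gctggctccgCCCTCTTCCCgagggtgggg
Eif4b: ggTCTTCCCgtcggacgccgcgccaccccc
Eef2: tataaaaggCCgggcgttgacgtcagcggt
The longest run was 15 bases in Eif3f, 10 in Eef1a1, 7 in Eif4b and 2 in Eef2. Of the 10 genes called higher in repopulating against wild-type microglia, 7 had a window, and Eif3f alone of these had a run of at least 8: the runs of the others not shown were 3 in Eif3a, 2 in Eif3k, 2 in Eif4ebp2, and 3 and 4 in the pair of windows of Eif2c1. Annotated starts can lie some bases from the starts used in these cells. A long run in this window, as in Eef1a1, thus need not lie in the messenger RNA. A short run, as in Eef2, says only that a longer one is not in this window.

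The eEF1 complex carries charged tRNA to the ribosome. Eef1a1 (chr9:78478449-78489151, GRCm38) had 136558, 138085 and 77032.5 normalised counts in repopulating microglia, 109434, 115161 and 103167 in bone-marrow macrophages, and 59025 and 51322.5 in wild-type microglia. Repopulating replicate 3 was well below replicates 1 and 2, and no library of either group reached down to wild type. The log2 fold was 1.04 ± 0.28 (SE) for repopulating against wild-type microglia, which missed the threshold (adjusted p = 0.054), and passed it without replicate 3 (1.32, adjusted p = 6.5e-05). Against wild type, the gene rose in bone-marrow macrophages (0.99 ± 0.28, adjusted p = 0.020). Processed copies of Eef1a1 in the genome can share its reads.

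Eef1g (chr19:8967041-8978479), the structural gamma subunit of the complex, had 4179, 4591 and 3561 normalised counts in repopulating microglia, 6168, 5585 and 6421 in bone-marrow macrophages, and 2453 and 2417 in wild-type microglia. The 3 groups formed separate steps, with repopulating microglia in the middle. It rose against wild type in repopulating microglia (log2 fold 0.75 ± 0.14, adjusted p = 0.019) and in bone-marrow macrophages (1.31 ± 0.14, adjusted p = 0.00021), and was lower in repopulating microglia than in bone-marrow macrophages (-0.56 ± 0.13, adjusted p = 0.011). Eef1b2 (chr1:63176825-63180486), the exchange factor that recharges eEF1A with GTP, had 8401, 9068 and 4497 in repopulating microglia, 6139, 6279.6 and 5760.0 in bone-marrow macrophages, and 3998 and 3403 in wild-type microglia. No group overlapped with wild type, yet the log2 folds of 0.92 ± 0.27 (adjusted p = 0.074) and 0.71 ± 0.27 (adjusted p = 0.063) missed the threshold. Both passed without repopulating replicate 3 (adjusted p = 1.5e-05 and 1.0e-04). Ndufs1 overlaps Eef1b2 on the other strand, and the libraries did not mark strand. Eef1d, a further exchange subunit, and Eef1e1, a scaffold of the tRNA synthetase complex, passed in no comparison with all libraries, with log2 folds of -0.30 to 0.42. Without repopulating replicate 3, Eef1d was called higher in repopulating than in wild-type microglia (0.59, adjusted p = 0.0060). It was then also called higher than in bone-marrow macrophages (0.40, adjusted p = 0.017).

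Eef2 (chr10:81176631-81182498), the translocase, rose clearly in both groups. It had 35394, 36879 and 26617 normalised counts in repopulating microglia, 34996, 34225 and 36061.5 in bone-marrow macrophages, and 13589 and 13758 in wild-type microglia. Even the lowest library, repopulating replicate 3, lay well above wild type. Log2 folds against wild type were 1.25 ± 0.18 in repopulating microglia (adjusted p = 0.0068) and 1.36 ± 0.18 in bone-marrow macrophages (adjusted p = 0.00054). The call in repopulating microglia was lost without either wild-type library (adjusted p = 0.090 without replicate 1 and 0.066 without replicate 2).

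Its inhibitor went the other way. Eef2k (chr7:120842831-120907450) encodes the calcium- and calmodulin-dependent kinase that phosphorylates eEF2 and slows elongation. It had 577, 658 and 1232 normalised counts in repopulating microglia, 319, 385 and 387 in bone-marrow macrophages, and 1149.7 and 1296 in wild-type microglia. Repopulating replicates 1 and 2 lay between the other groups, and replicate 3 lay within the wild-type range. The gene fell in bone-marrow macrophages against wild type (log2 fold -1.75 ± 0.29, adjusted p = 0.0017), and was higher in repopulating microglia than in bone-marrow macrophages (1.10 ± 0.26, adjusted p = 0.012). For repopulating against wild-type microglia the log2 fold was -0.65 ± 0.29 (adjusted p = 0.19), and -0.98 without replicate 3, where it passed (adjusted p = 0.00027). The ratio of Eef2 to Eef2k, each per kilobase of exon, was 137, 125 and 48.1 in repopulating microglia, 244, 198 and 208 in bone-marrow macrophages, and 26.3 and 23.7 in wild-type microglia. This ratio did not overlap between the groups and was given no test. Eefsec, which delivers the selenocysteine tRNA, passed in no comparison and ranged from 125 to 232 normalised counts.

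**Figure D3:**
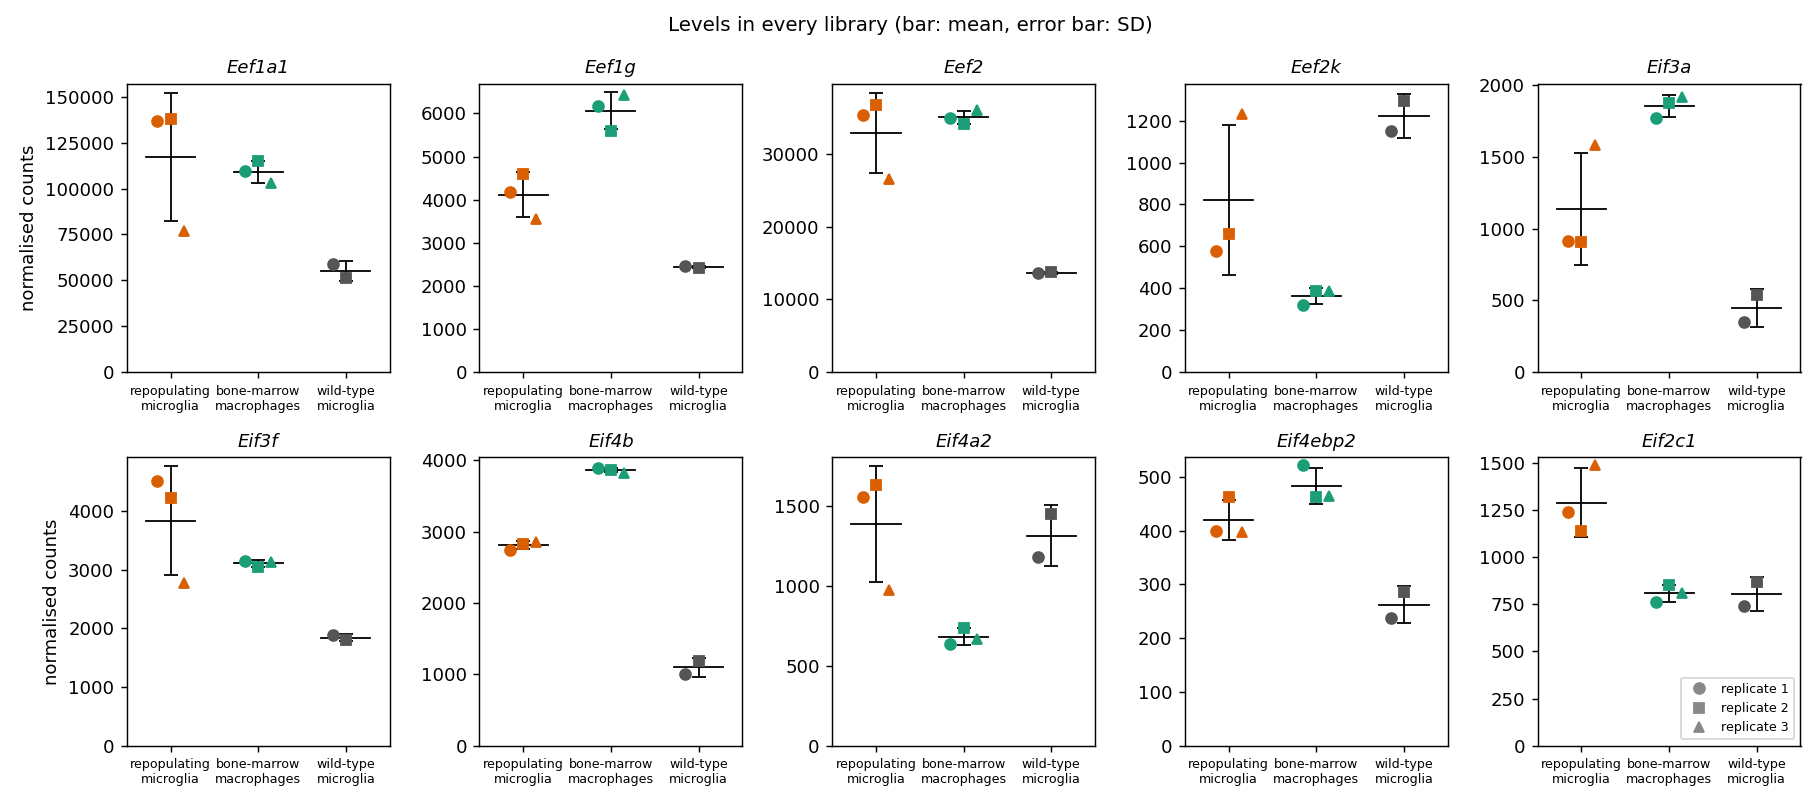
Normalised counts (linear axes from 0) of 10 genes in every library, with group means (bars) and SD (n = 3, 3 and 2). Eif4b, Eef2 and Eif3a show repopulating microglia and bone-marrow macrophages above wild-type microglia, Eef2k and Eif4a2 are lowest in bone-marrow macrophages, and Eif2c1 is highest in repopulating microglia.

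Among the factors that find the start codon, the most abundant passed no test. Eif1 (chr11:100319885-100322096), which guards start codon choice, had 2968, 2907 and 2292 normalised counts in repopulating microglia, 2732, 2814 and 2589.9 in bone-marrow macrophages, and 2484 and 2433 in wild-type microglia, and passed in no comparison. Eif5, the GTPase activator of eIF2, had 1479, 1654 and 1067 in repopulating microglia, 1258, 1448 and 984 in bone-marrow macrophages, and 1231 and 1206 in wild-type microglia. For both genes the repopulating libraries overlapped with those of the other groups, and no test was passed. Eif1b, a close relative of Eif1, had 685, 661 and 636 in repopulating microglia, 556, 473 and 622 in bone-marrow macrophages, and 685 and 679 in wild-type microglia, also without a call.

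Of the 7 genes in this group, 1 passed in each comparison with bone-marrow macrophages and 0 in repopulating against wild-type microglia. Of all genes tested, 43.5% were called in bone-marrow macrophages against wild type and 30.9% in repopulating microglia against bone-marrow macrophages. In repopulating against wild-type microglia 8.61% were called, so 0 calls among so few genes do not set the group apart. Eif5b, which joins the ribosomal subunits, rose in bone-marrow macrophages against wild type, at 377 ± 27.3 and 117 ± 23.3 normalised counts (SD, n = 3 and 2, log2 fold 1.69 ± 0.43, adjusted p = 0.013). In repopulating microglia it had 196, 156 and 521, with the high value in replicate 3, and the log2 fold of 1.11 ± 0.43 was not called (adjusted p = 0.15). Without replicate 3 it was 0.59 and was called (adjusted p = 0.029). Eif1a, which stabilises the scanning ribosome, had 364, 365 and 221 normalised counts in repopulating microglia and 494, 497 and 453 in bone-marrow macrophages, a fall of 0.64 ± 0.20 on the log2 scale (adjusted p = 0.037). Eif1ax, at 291 ± 125, 491 ± 56.7 and 274 ± 20.7 in repopulating microglia, bone-marrow macrophages and wild-type microglia (SD, n = 3, 3 and 2), was not called. It was called once repopulating replicate 3 was left out, higher in bone-marrow macrophages than in wild-type microglia (0.83, adjusted p = 0.00021) and lower in repopulating microglia than in bone-marrow macrophages (-0.44, adjusted p = 0.018). Eif1a and Eif1ax are close copies that can share reads.

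The eIF2 group loads the initiator tRNA, and eIF2B is the exchange factor that the integrated stress response inhibits. None of its 9 genes was called in repopulating against wild-type microglia by limma, edgeR or DESeq2, where limma called 8.61% of all genes. At an unadjusted p under 0.05 in limma there was 1, Eif2b1. The log2 folds of the 9 genes ran from -0.39 to 0.46. The highest of these, Eif2a, was at 0.84 without repopulating replicate 3 and was called (adjusted p = 0.00095). Eif2s2 (chr2:154871410-154892935), the beta subunit, had 1078, 1148 and 692 normalised counts in repopulating microglia, 1358, 1476 and 1283 in bone-marrow macrophages, and 1081 and 843 in wild-type microglia. Eif2s1, the alpha subunit that the stress kinases phosphorylate, had 745, 977 and 446 in repopulating microglia, 996, 915 and 876 in bone-marrow macrophages, and 754 and 659 in wild-type microglia. Eif2a, a separate factor despite its name, had 714, 879.6 and 359 in repopulating microglia, 873, 915 and 798 in bone-marrow macrophages, and 483 and 404 in wild-type microglia. In all 3 genes repopulating replicate 3 was the lowest of its group. Eif2a rose in bone-marrow macrophages against wild type (log2 fold 0.96 ± 0.32, adjusted p = 0.039), and Serp1 overlaps it on the other strand. Among the 5 subunits of eIF2B, Eif2b5, the catalytic one, rose in bone-marrow macrophages against wild type (0.45 ± 0.15, adjusted p = 0.039) and was lower in repopulating microglia than in bone-marrow macrophages (-0.41 ± 0.13, adjusted p = 0.046). Eif2b1 was also lower in that comparison (-0.46 ± 0.14, adjusted p = 0.035).

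The eIF3 scaffold is the largest of the roles, with 12 tested subunits. All 12 tested subunits had log2 folds above 0 against wild type in both groups. Called higher were 4 in repopulating microglia (Eif3a, Eif3f, Eif3h and Eif3k) and 8 in bone-marrow macrophages (those 4 with Eif3b, Eif3c, Eif3d and Eif3l). Over all genes tested 4.86% and 21.3% were called higher in these comparisons. Medians of the 12 were 0.55 and 0.73. Without repopulating replicate 3 the numbers called were 9 and 12, the repopulating median was 0.87, and 15.0% and 31.6% of all genes were called higher. Without wild-type replicate 1 they were 0 and 4, without wild-type replicate 2 they were 0 and 3, and without repopulating replicate 1 they were 2 and 8.

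Eif3a (chr19:60761117-60790658), the largest subunit and the core of the scaffold, had 913, 911 and 1586 normalised counts in repopulating microglia, 1773, 1876 and 1919.7 in bone-marrow macrophages, and 352 and 541 in wild-type microglia. Every library of either group lay above wild type, and repopulating replicate 3 was close to bone-marrow macrophages. Log2 folds against wild type were 1.33 ± 0.27 in repopulating microglia (adjusted p = 0.021) and 2.09 ± 0.27 in bone-marrow macrophages (adjusted p = 0.00044), where the difference was 4.25-fold. It was lower in repopulating microglia than in bone-marrow macrophages (-0.76 ± 0.24, adjusted p = 0.040). The call in repopulating against wild-type microglia was lost without wild-type replicate 1 (adjusted p = 0.21) or replicate 2 (adjusted p = 0.060).

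Eif3f (chr7:108934417-108942951), whose promoter and start are printed above, had 4509.9, 4218 and 2774 normalised counts in repopulating microglia, 3151, 3045 and 3125 in bone-marrow macrophages, and 1884 and 1803 in wild-type microglia. It rose in repopulating microglia (1.02 ± 0.20, adjusted p = 0.019) and in bone-marrow macrophages (0.75 ± 0.20, adjusted p = 0.015). Eif3h (chr15:51786558-51865523) had 3969, 4084 and 2299 in repopulating microglia, 3179.5, 3055.5 and 2998 in bone-marrow macrophages, and 1882 and 1608.5 in wild-type microglia. Both subunits share a fold of the proteasome lid, and in both, replicate 3 of the repopulating microglia was the lowest library of its group yet above wild type. Eif3h rose in repopulating microglia by 0.94 ± 0.24 (adjusted p = 0.044), and by 1.21 without replicate 3 (adjusted p = 1.2e-05). In bone-marrow macrophages it rose by 0.82 ± 0.24 (adjusted p = 0.022).

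Eif3k (chr7:28971372-28981864), a peripheral subunit, had 1764, 1923 and 1284 normalised counts in repopulating microglia, 1437, 1452 and 1555 in bone-marrow macrophages, and 869.8 and 785 in wild-type microglia. Its log2 folds against wild type were 0.98 ± 0.18 in repopulating microglia (adjusted p = 0.015) and 0.84 ± 0.18 in bone-marrow macrophages (adjusted p = 0.0054). The repopulating and bone-marrow libraries overlapped. Eif3e (chr15:43250058-43282719), another proteasome lid relative, had 3598, 3710.4 and 1412 in repopulating microglia, 2673, 2944 and 2457 in bone-marrow macrophages, and 1482 and 1239 in wild-type microglia. Replicate 3 fell within the wild-type range, and the log2 fold of 0.97 ± 0.37 was not called (adjusted p = 0.14), against 1.43 without replicate 3 (adjusted p = 8.9e-06).

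Some subunits differed between repopulating microglia and bone-marrow macrophages, and all 4 that were called there with all libraries were lower in repopulating microglia. This direction depends on replicate 3: without it 4 were lower and 4 higher, Eif3e (adjusted p = 0.0065), Eif3f (0.0010), Eif3h (0.0075) and Eif3k (0.022), and the median of the 12 was 0.06 in place of -0.11. Without any other library none was called higher, and 1 to 3 were lower. Eif3c (chr7:126546455-126566411), a core subunit that contacts eIF1 and eIF5, had 1150.4, 1219 and 1435 normalised counts in repopulating microglia, 1885, 1851 and 1834 in bone-marrow macrophages, and 804 and 951 in wild-type microglia. The 3 groups did not overlap, and repopulating microglia lay in the middle. Against wild type its log2 folds were 0.53 ± 0.14 in repopulating microglia (adjusted p = 0.051, not called) and 1.09 ± 0.14 in bone-marrow macrophages (adjusted p = 0.00046). It was lower in repopulating microglia than in bone-marrow macrophages (-0.56 ± 0.13, adjusted p = 0.010). Eif3b, which binds RNA and the small subunit, was at 919 ± 133 in repopulating microglia, 1253 ± 141 in bone-marrow macrophages and 784 ± 43.2 in wild-type microglia (SD, n = 3, 3 and 2). Eif3d, a subunit that can bind the cap by itself, stood at 747 ± 32.2, 951 ± 43.3 and 689.5 ± 18.5 in the same 3 groups. Both genes, with Eif3a, were lower in repopulating microglia than in bone-marrow macrophages (Eif3b -0.45 ± 0.14, adjusted p = 0.042, and Eif3d -0.35 ± 0.10, adjusted p = 0.035). Eif3g, Eif3i and Eif3m passed in none of the 3 comparisons with all libraries. With repopulating replicate 3 left out, Eif3i (log2 fold 0.89 in place of 0.57, adjusted p = 0.00033) and Eif3m (0.86 in place of 0.46, adjusted p = 0.00061) were called higher in repopulating than in wild-type microglia.

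**Figure D4:**
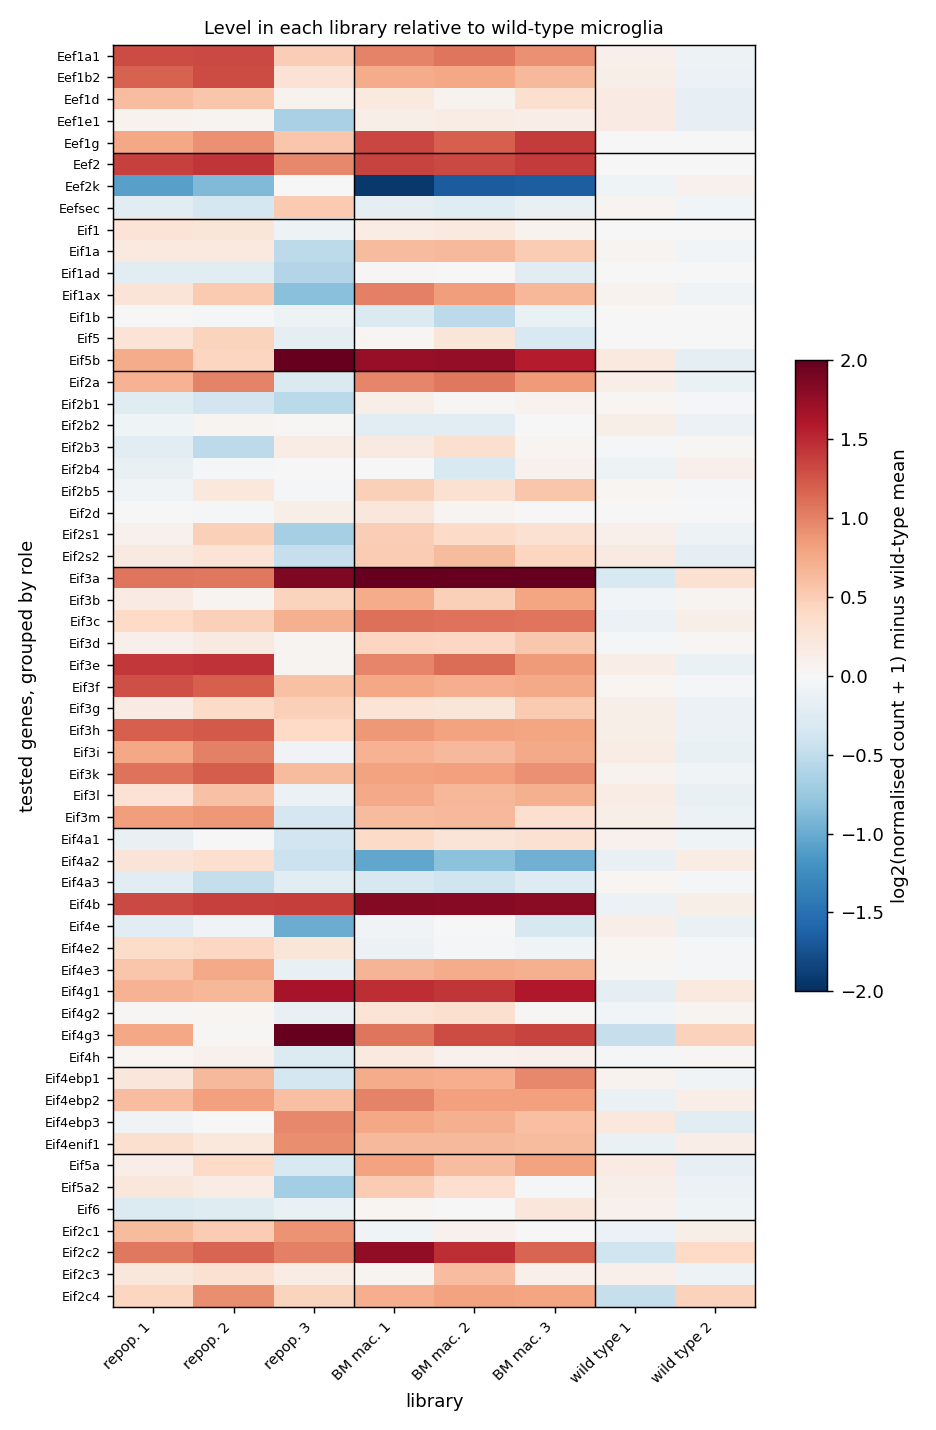
Level of each tested gene in each library as log2(normalised count + 1) minus the mean of wild-type microglia, grouped by role (colour scale cut at -2 and 2). Repopulating replicate 3 is paler or bluer than replicates 1 and 2 for most eEF1 and eIF3 genes and darker red for Eif5b, Eif3a, Eif4g1 and Eif4g3.

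Among the cap-binding and unwinding factors, Eif4b stood out. Eif4b (chr15:102073773-102097173) encodes the protein that stimulates the eIF4A helicase and is phosphorylated by S6 kinase. It had 2745, 2832 and 2853 normalised counts in repopulating microglia, 3890.4, 3863 and 3826 in bone-marrow macrophages, and 1007 and 1189.6 in wild-type microglia. Each group was tight, the groups lay far apart, and repopulating replicate 3 did not deviate. Log2 folds against wild type were 1.36 ± 0.12 in repopulating microglia (2.57-fold, adjusted p = 0.00097) and 1.82 ± 0.12 in bone-marrow macrophages (3.52-fold, adjusted p = 2.1e-05). It was lower in repopulating microglia than in bone-marrow macrophages (-0.46 ± 0.11, adjusted p = 0.012). It was the one gene called in repopulating against wild-type microglia under all 21 alternative settings. Eif4h, which shares this role, had 2367, 2443 and 1903 normalised counts in repopulating microglia, 2618, 2442 and 2473 in bone-marrow macrophages, and 2261 and 2325 in wild-type microglia, and passed in no comparison.

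The forms of the helicase differed between cell types. Eif4a1 (chr11:69666936-69672423), the main form, had 4514, 5031 and 3837 normalised counts in repopulating microglia, 6588, 6042 and 6230.0 in bone-marrow macrophages, and 5322 and 4749 in wild-type microglia. Eif4a2 (chr16:23107444-23114136), a close relative linked to repression by microRNAs, had 1559, 1631 and 973 in repopulating microglia, 636, 739 and 668 in bone-marrow macrophages, and 1179 and 1451 in wild-type microglia. Repopulating microglia overlapped with wild-type microglia for both genes and with bone-marrow macrophages for neither. Eif4a2 was higher in repopulating microglia than in bone-marrow macrophages (log2 fold 0.99 ± 0.20, adjusted p = 0.0060) and fell in bone-marrow macrophages against wild type (-0.94 ± 0.22, adjusted p = 0.0098). Eif4a1 was lower in repopulating microglia than in bone-marrow macrophages (-0.50 ± 0.13, adjusted p = 0.021). Per kilobase of exon, the ratio of Eif4a1 to Eif4a2 was 3.57, 3.80 and 4.86 in repopulating microglia, 12.7, 10.1 and 11.5 in bone-marrow macrophages, and 5.56 and 4.03 in wild-type microglia. Rfc4 overlaps Eif4a2 on the other strand. Eif4a3, the helicase of the exon junction complex, passed in no comparison.

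Cap-binding proteins differed less. Eif4e, which binds the cap, had 439 to 835 normalised counts in repopulating microglia, 699 to 879 in bone-marrow macrophages, and 799 and 954 in wild-type microglia, with no call. Eif4e2, a cap-binding relative that represses translation, had 842, 875 and 773 in repopulating microglia, 602, 638 and 624 in bone-marrow macrophages, and 672 and 635 in wild-type microglia. Its repopulating libraries were all above those of the other groups, and it was higher than in bone-marrow macrophages by 0.41 ± 0.11 (adjusted p = 0.019), while the log2 fold against wild type was 0.34 ± 0.12 (adjusted p = 0.12). Eif4e3, a further relative, rose in bone-marrow macrophages against wild type (0.71 ± 0.24, adjusted p = 0.041).

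Of the eIF4G scaffolds, Eif4g1 (chr16:20668313-20692884), the main one, had 1033, 1009.5 and 1999.5 normalised counts in repopulating microglia, 1766, 1709.6 and 1931 in bone-marrow macrophages, and 559 and 727 in wild-type microglia. It rose in bone-marrow macrophages against wild type (1.5 ± 0.28, adjusted p = 0.0032). In repopulating microglia all libraries were above wild type, with replicate 3 the highest, and the log2 fold of 1.0 ± 0.28 was not called (adjusted p = 0.063). Without replicate 3 it was smaller, 0.68, and passed (adjusted p = 0.0028). Eif4g2, a relative that does not bind eIF4E, had 5741, 5759 and 5094 in repopulating microglia, 6831, 7068 and 5726 in bone-marrow macrophages, and 5401 and 5873 in wild-type microglia, with no call. Eif4g3 had 289, 171 and 968 in repopulating microglia, with replicate 3 far above the others, and was not called.

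The eIF4E-binding proteins hold eIF4E away from eIF4G until mTORC1 phosphorylates them. Eif4ebp2 (chr10:61428491-61452661), the form known for its role in the brain, had 399.5, 462 and 397 normalised counts in repopulating microglia, 522, 462 and 464 in bone-marrow macrophages, and 238 and 287 in wild-type microglia. It rose against wild type in repopulating microglia (0.68 ± 0.15, adjusted p = 0.028) and in bone-marrow macrophages (0.88 ± 0.15, adjusted p = 0.0019), and no library of either group reached down to wild type. Eif4ebp1 had 288, 387 and 194 in repopulating microglia, 414, 407 and 479 in bone-marrow macrophages, and 258 and 235 in wild-type microglia. It rose in bone-marrow macrophages against wild type (0.81 ± 0.26, adjusted p = 0.032), and repopulating replicate 3 lay below wild type. Eif4enif1, which carries eIF4E into the nucleus, had 198, 184 and 303 in repopulating microglia, 249, 250.3 and 248 in bone-marrow macrophages, and 145 and 174 in wild-type microglia. It too rose in bone-marrow macrophages (0.64 ± 0.22, adjusted p = 0.042). Thus 1 of 4 genes of this class was called higher in repopulating microglia and 3 of 4 in bone-marrow macrophages, both against wild type, where 4.86% and 21.3% of all genes were. The call in repopulating microglia was lost without any single library other than repopulating replicate 3, and the 3 became 1 without either wild-type library or any bone-marrow library. Eif4ebp3 stayed at 10.2 to 24.2 normalised counts in every library.

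Eif5a (chr11:69916714-69921958), the factor that carries the modified amino acid hypusine and eases stalled ribosomes, had 3323, 3961 and 2449.9 normalised counts in repopulating microglia, 5259, 4659 and 5302 in bone-marrow macrophages, and 3395 and 2695 in wild-type microglia. Repopulating and wild-type microglia overlapped, and bone-marrow macrophages stood above both. The gene rose in bone-marrow macrophages against wild type (0.74 ± 0.21, adjusted p = 0.019) and was lower in repopulating microglia than in bone-marrow macrophages (-0.67 ± 0.19, adjusted p = 0.025). Eif6, which keeps the large ribosomal subunit from joining too early, had 529, 540.2 and 582 in repopulating microglia, 655, 643 and 751 in bone-marrow macrophages, and 681 and 599.9 in wild-type microglia. Eif5a2, a second form of eIF5A, had 130.3, 124 and 69.1 in repopulating microglia, 159, 141 and 108 in bone-marrow macrophages, and 121 and 103 in wild-type microglia. Neither Eif6 nor Eif5a2 passed in any comparison.

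The 4 Argonaute genes that share the Eif2c prefix differed from each other. Eif2c1, now Ago1 (chr4:126435012-126468583), had 1241, 1138 and 1490.4 normalised counts in repopulating microglia, 762, 855 and 809 in bone-marrow macrophages, and 743 and 868 in wild-type microglia. All 3 repopulating libraries were above all others. The gene rose in repopulating microglia against wild type (0.67 ± 0.15, adjusted p = 0.031) and against bone-marrow macrophages (0.67 ± 0.14, adjusted p = 0.0062), while bone-marrow macrophages and wild-type microglia differed by a log2 fold of 0.01 ± 0.15 (adjusted p = 0.97). Eif2c2, now Ago2 (chr15:73095844-73184935), the form that can cut its target RNA, had 243, 261 and 234 in repopulating microglia, 398, 327 and 261 in bone-marrow macrophages, and 87.6 and 155 in wild-type microglia. It rose against wild type in repopulating microglia (1.07 ± 0.26, adjusted p = 0.039) and in bone-marrow macrophages (1.47 ± 0.26, adjusted p = 0.0023), and Chrac1 overlaps it on the other strand. Eif2c3 and Eif2c4, now Ago3 and Ago4, were not called. Eif2c4 missed the threshold narrowly in bone-marrow macrophages against wild type (0.78 ± 0.28, adjusted p = 0.0501). Per kilobase of exon, the ratio of Eif2c1 to Eif2c2 was 8.83, 7.53 and 11 in repopulating microglia, 3.31, 4.52 and 5.35 in bone-marrow macrophages, and 14.6 and 9.71 in wild-type microglia.

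Genes that work beside these factors were read from fixed lists. Among ribosomal protein genes of the large subunit, 22 of 44 were called higher in repopulating against wild-type microglia and 0 lower, with a median log2 fold of 0.94, and 30 of 44 in bone-marrow macrophages against wild-type microglia. For the small subunit the counts were 10 of 32 and 14 of 32, again with 0 lower. Of all genes tested 4.86% and 21.3% were called higher in these comparisons. The counts rest on single libraries: without repopulating replicate 3 they were 42 and 31 in repopulating microglia and 41 and 28 in bone-marrow macrophages, for the large and the small subunit. In repopulating microglia they were 6 and 2 without replicate 1, 16 and 5 without replicate 2, 0 and 0 without either wild-type library, and 14 to 15 and 2 to 5 without a bone-marrow library. In bone-marrow macrophages they were 20 and 8 without wild-type replicate 1, 7 and 2 without wild-type replicate 2, and 18 to 22 and 7 to 10 without a bone-marrow library. Neither edgeR nor DESeq2 called any of these genes lower, and none was lower at an unadjusted p under 0.05. Rpl4 had 12701, 12901 and 10355 normalised counts in repopulating microglia, 15226, 14616 and 14706 in bone-marrow macrophages, and 6134 and 5192 in wild-type microglia. Its log2 folds against wild type were 1.08 ± 0.15 in repopulating microglia (adjusted p = 0.0068) and 1.40 ± 0.15 in bone-marrow macrophages (adjusted p = 0.00022). In repopulating microglia against bone-marrow macrophages 0 of 44 and 1 of 32, a rise, were called (edgeR the same numbers, DESeq2 2 and 4, and 4 and 6 at an unadjusted p under 0.05 in limma), against 30.9% of all genes. This too depends on repopulating replicate 3: without it 26 and 24 were called higher in repopulating microglia, with medians of 0.38 and 0.49 in place of 0.12 and 0.19, where 23.5% of all genes were called higher.

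Of 16 accessory factors of the cap and the poly(A) tail, 1 rose in repopulating against wild-type microglia (6.25%, against 4.86% of all genes) and 0 fell. Without repopulating replicate 3, 3 rose and 1 fell. In bone-marrow macrophages 6 rose and 3 fell against wild type (56.25% called, against 43.5% of all genes). The gene called in repopulating microglia was Pabpc1, the poly(A)-binding protein that closes the messenger RNA into a loop with eIF4G. It had 8958, 8529 and 8579 normalised counts in repopulating microglia, 8988, 9583 and 9332 in bone-marrow macrophages, and 4442 and 4636 in wild-type microglia (log2 folds 0.94 ± 0.12, adjusted p = 0.0045, and 1.03 ± 0.12, adjusted p = 0.00029). Of 14 tested genes among the eIF2 kinases and the stress response, 1 rose in repopulating against wild-type microglia (7.14%, against 4.86% of all genes) and 0 fell. The 1 was Eif2ak2, the kinase PKR that senses double-stranded RNA. It stood at 342, 276 and 448 in repopulating microglia, 405, 422 and 423 in bone-marrow macrophages, and 91.9 and 104 in wild-type microglia (1.82 ± 0.20, adjusted p = 0.0023, and 2.08 ± 0.20, adjusted p = 0.00010). Atf4 of this list was lower in repopulating microglia at an unadjusted p under 0.05 in limma and was called lower by DESeq2, not by edgeR. Without repopulating replicate 3, 2 of the list were higher and 1 lower. In bone-marrow macrophages 2 rose and 2 fell against wild type (28.6% called, against 43.5% of all genes). Of 22 cytosolic tRNA synthetases 1 rose, Qars, which charges glutamine tRNA (0.69 ± 0.16, adjusted p = 0.031), while DESeq2 called 5. In bone-marrow macrophages 9 of 22 rose against wild type. The 4.55% and 40.9% called are near and above the 4.86% and 21.3% of all genes called higher, and 0 were called lower in either. In repopulating microglia 5 were higher and 2 lower without replicate 3, while Qars was lost without replicate 1, either wild-type library or any bone-marrow library. In bone-marrow macrophages 5 were higher without wild-type replicate 2 and 6 without wild-type replicate 1.

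None of 21 genes of mTORC1 and the S6 kinases was called in repopulating against wild-type microglia by limma or edgeR (DESeq2 1, and 5 at an unadjusted p under 0.05 in limma), while 7 rose and 3 fell in bone-marrow macrophages against wild-type microglia. Of all genes tested 8.61% and 43.5% were called, so the 47.6% of this list in bone-marrow macrophages was near the share of all genes. In repopulating microglia 3 rose without replicate 3, and in bone-marrow macrophages 2 rose and 0 fell without wild-type replicate 1, against 3 and 0 without wild-type replicate 2. The 10 factors of mitochondrial translation had 0 and 2 calls in these comparisons, both higher. Among 7 tested enzymes that modify eIF5A and eEF2, 0 were called in repopulating microglia and 1, a fall, in bone-marrow macrophages. In repopulating microglia neither of these lists had a gene at an unadjusted p under 0.05, or a call by edgeR or DESeq2. Of 6 release and recycling factors, 1 fell and 0 rose in repopulating microglia, where 3.75% of all genes were called lower, and 3 fell without replicate 3. In bone-marrow macrophages 1 rose and 1 fell against wild type. The 1 that fell in repopulating microglia was Gspt2, a form of the release factor eRF3. It passed the filter only through libraries of the other 2 groups, so its fall is not independent of the filter. Its levels were low, at 1.89, 1.48 and 2.30 normalised counts in repopulating microglia, 11.4, 10.6 and 10.6 in bone-marrow macrophages, and 9.62 and 12.2 in wild-type microglia (log2 fold against wild type -2.04 ± 0.44, adjusted p = 0.026).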

How the data were processed

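RNA was sequenced from cells sorted after papain digestion and a Percoll gradient. Libraries came from RNA of integrity above 8, with a kit that does not mark strand, per the labels' protocols. The submitters' processing notes list TopHat2 (2.0.10), Bowtie2 (2.1.0.0), HTSeq, DESeq (1.14.0) and build mm10. For the role of each tool, the annotation and how strand was treated in counting, nothing is given in the sources used here. Values were deposited as a signal: the authors had divided gene counts by 1 size factor per library. This is seen in the values, of which 100% were whole multiples of 1 read (tolerance 0.01 reads). Table columns were matched to samples by name. The 3 columns left once repopulating and control columns had been matched were taken as bone-marrow macrophages. Reads of each pair of replicates were beyond counting noise (chi-square per degree of freedom 6.74 to 57.2), so each library counted as 1 replicate.

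Genes entered the tests if 2 or more libraries had 10 or more normalised counts: 11415 genes, with 99.9% of the reads. On log2(normalised count + 1), limma 3.58.1 (R 4.3.3) fitted all 8 libraries together and let the variance follow the mean level. Tests were two-sided, at a Benjamini-Hochberg adjusted p of 0.05 over all genes tested. Folds on this scale understate changes of low genes. The method was tested on simulated data. Members, lists and tests were chosen with earlier results of these data known. Every member may be named. Values per library are given for those called in repopulating against wild-type microglia, for the 10 with the smallest adjusted p and groups that do not overlap in each comparison, and for the 3 highest of each role. From each list up to 4 called genes, or else the 2 highest, could be named, and Atf4 was added after its result was seen. A few further members have values beside these, chosen after their values were seen.

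Loci are from the GENCODE vM21 annotation of GRCm38 (mm10), 1-based. Lengths are unions of exons, which include exons little used in these cells. Promoter windows are from RefSeq, build GRCm38.p6. Alternatives were 2 pseudocounts, 2 filters, 3 scalings, a fit of only the groups compared, a replicate block, a covariate of Y-linked transcripts, library weights, count tests on whole reads (edgeR 4.0.16 quasi-likelihood, DESeq2 1.42.0), and fits without each library. Python 3.11.15 with matplotlib 3.10.9 drew the figures.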

Additional observations from a re-analysis of the deposited data

How the results depend on the processing

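Of the 49 calls on the 58 tested genes, none turned in sign under any of 21 alternatives; over all of these, 830 held and 199 were lost. The number called in repopulating against wild-type microglia was 10, and became 1 with only the 2 groups compared, 1 with the Y-linked covariate, 23 with library weights and 16 with DESeq2, and 1 to 24 without single libraries. In bone-marrow macrophages against wild-type microglia it was 24, and became 38 with only the 2 groups compared, 38 with library weights, and 11 to 38 without single libraries. In repopulating microglia against bone-marrow macrophages it was 15, and became 25 with equal totals, 7 with the Y-linked covariate, 35 with library weights, and 3 to 28 without single libraries. Under the other settings the counts stayed within 1.5 times of these. Over all genes tested, 983 were called in repopulating against wild-type microglia. This became 78 with only the 2 groups, 108 with the covariate, 2807 with library weights and 1625 with DESeq2. In bone-marrow macrophages against wild-type microglia 4960 became 7170 with only the 2 groups and 7231 with library weights. In repopulating microglia against bone-marrow macrophages 3526 became 4096 with equal totals, 2655 with the covariate and 6409 with library weights. The cause was not tested. Fits without a library or with only 2 groups hold fewer libraries. In the main fit a library outside the 2 groups compared does not enter their folds. It enters only the spread shared by all libraries and the filter. Eif4b in repopulating against wild-type microglia, 9 genes in bone-marrow macrophages against wild-type microglia (Eef1g, Eef2, Eef2k, Eif2c2, Eif3a, Eif3c, Eif4b, Eif4ebp2 and Eif4g1), and Eif3c and Eif4a2 in repopulating microglia against bone-marrow macrophages were called under all 21. With equal totals, which moved the median of all genes to -0.12, 0.13 and -0.25 in the 3 comparisons, the log2 fold of Eef1d in repopulating microglia against bone-marrow macrophages was -0.028 in place of 0.22, and that of Eif2b2 was -0.10 in place of 0.15; neither was called. A further 57 results lay within 1 SE of 0 and were not followed. Deviations of same-numbered libraries from their group means had correlations of -0.085, -0.0015 and 0.13 between repopulating microglia and bone-marrow macrophages. Between repopulating and wild-type microglia they were 0.24 and -0.24. With so few libraries these values cannot show whether the numbers pair samples, and the samples were treated as unpaired. With the replicate block the counts were 12, 30 and 14. Most libraries had few reads of Eif4ebp3, Eif3j2 and Eef1a2, which limits any statement on them.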
